A study of Homo sapiens with 5 samples.

Results

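The genes described here are 6 subunits of the GABA-A receptor, GABRA2, GABRA3, GABRA5, GABRB1, GABRB2 and GABRG3, which were chosen by name from the 19 GABA-A receptor genes listed among the 32732 genes shared by the deposited human-reference matrices. The choice was made with earlier results of these data known. They were followed in 34390 human cells of 5 single-cell libraries, summed by library over neuron-like, progenitor-like and astrocyte-like cells that were set by marker genes. All cells came from H9, a human embryonic stem cell line, here carrying ChR2-EYFP in the AAVS locus (genotype label WT). The library D0 was made from brain organoids on day 42 of culture, and the other 4 were made from grafts of such organoids in the brains of immunodeficient mice (named SCID or SCID-Beige in the study's text): HIP_2MPT and HIP_4MPT from hippocampus and PFC_2MPT and PFC_4MPT from prefrontal cortex, 2 or 4 months post transplantation. D0 cells were dissociated with TrypLE and graft cells with Trypsin-EDTA, so that dissociation, culture in a dish and stage cannot be told apart in any comparison with D0. The D0 matrix was also counted with another Cell Ranger release and another gene list, of 33538 genes against 36601 in the grafts. Counting can therefore not be told apart from these either. The mice lack T and B cells, the line is 1 genetic background, and each condition is 1 library.

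GABA-A receptors are chloride channels of 5 subunits around a central pore, most often alpha, beta and gamma subunits together. The beta subunits form the GABA site with the alpha subunits and carry contacts for trafficking, whereas a gamma subunit brings the receptor to synapses and completes the benzodiazepine site. In the developing brain GABA acts on progenitors and young neurons before synapses have formed, alpha-2, alpha-3 and alpha-5 subunits being the prominent alpha subunits of that period, and astrocytes also carry GABA-A receptors.

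In GRCh38, with GENCODE annotation, GABRA2 (ENSG00000151834) lies at chr4:46243548-46475230 on the minus strand and GABRB1 (ENSG00000163288) in the same receptor gene cluster at chr4:46993723-47426447 on the plus strand. GABRB2 (ENSG00000145864) lies at chr5:161288429-161549044 on the minus strand and GABRA3 (ENSG00000011677) at chrX:152166234-152451315 on the minus strand. GABRA5 (ENSG00000186297, chr15:26866911-26949208) and GABRG3 (ENSG00000182256, chr15:26971181-27541984) are plus-strand neighbours. All of the 6 but GABRB1 overlap a gene on the opposite strand, which for GABRA2 and GABRA3 is a non-coding RNA gene. For GABRG3 the opposite strand holds non-coding RNA genes and pseudogenes. Whether counting used the strand is not stated in the sources used here, so the counts of these 5 genes are uncertain to that extent.

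Of the 6 genes, 4 had an entry among 35116 RefSeq promoter sequences (GRCh38.p14, 250 bases before to 50 after the start). The promoters of GABRB1 (chr4:47031317-47031616, plus strand) and GABRB2 (chr5:161546676-161546975, minus strand) are shown because these 2 beta subunit genes were called in opposite directions in neuron-like cells at 4 months against D0. No such opposite calls were made at 2 months against D0 or from 2 to 4 months. Their sequences at the start share 3 runs of at least 10 bases, in capitals below, in the same order. Both RefSeq starts lie inside the GENCODE spans given above.
GABRB1: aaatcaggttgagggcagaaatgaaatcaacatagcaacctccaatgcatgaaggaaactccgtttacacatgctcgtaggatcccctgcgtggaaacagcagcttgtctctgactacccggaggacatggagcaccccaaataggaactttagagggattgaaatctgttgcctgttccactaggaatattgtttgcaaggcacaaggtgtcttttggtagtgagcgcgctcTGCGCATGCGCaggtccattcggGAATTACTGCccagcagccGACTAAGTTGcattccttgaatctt
GABRB2: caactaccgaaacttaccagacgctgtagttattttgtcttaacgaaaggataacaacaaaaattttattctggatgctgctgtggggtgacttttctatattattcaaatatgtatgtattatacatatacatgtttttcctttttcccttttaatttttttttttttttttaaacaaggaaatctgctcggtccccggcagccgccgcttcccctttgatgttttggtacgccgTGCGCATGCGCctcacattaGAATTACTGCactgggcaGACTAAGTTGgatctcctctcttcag
The run TGCGCATGCGC of 11 bases starts at position -17 of GABRB1 and -14 of GABRB2, counted from the start site, and was found in 265 of the 35116 promoters (0.755%). It holds CGCATGCG, the core of the motif bound by the factor NRF1, which was looked for after the sequences had been read and which reads the same on both strands; 709 promoters (2.02%) hold it. The 10-base runs GAATTACTGC and GACTAAGTTG were found in 12 (0.0342%) and 10 (0.0285%) of the promoters. These matches describe the letters in the window.

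The libraries differed in depth per cell. D0 held 4885 human cells with a median of 9847 UMIs (unique molecular identifiers, each counting 1 captured transcript), and the grafts held 5952 to 8363 human cells with medians of 1253 to 2759 UMIs. Levels are therefore given as CPM, the UMIs of a gene scaled to the same total of UMIs in each class sum, with exact 95% Poisson intervals, which cover counting error only. Shares of cells are given after thinning each cell to 1000 UMIs, and cells under 1000 UMIs were left out of them. This left out 133 of 2144 neuron-like cells in D0, 1580 of 7382 in HIP_2MPT and 219 of 4867 in PFC_2MPT. At 4 months it left out 143 of 4758 in HIP_4MPT and 975 of 6524 in PFC_4MPT. Of the astrocyte-like cells of HIP_2MPT, 105 of 363 were left out. Pairs of libraries shared 6 to 20 cell barcodes, at most 0.289% of the cells of a library. The median mitochondrial share of the human cells was 7.31% in PFC_4MPT and 2.35% to 3.77% in the other libraries. In mouse host barcodes of the grafts, which should hold no human transcripts, human GABRB1 was seen in 0 to 0.917% of the barcodes and human GABRA2 in at most 0.166%. The classes were checked against their markers. All 8 neuron markers were found in the neuron-like sums of every library, at a summed level of 4824 CPM in D0 and 5406 to 10052 CPM in the grafts, beside radial glia markers at 2307 CPM in D0 and 273 to 534 CPM in the grafts. In progenitor-like sums the radial glia markers lay above the neuron markers except in HIP_2MPT, at 2226 against 3018 CPM. The summed inhibitory neuron markers of these sums were 22.6 CPM in D0, 20.2 CPM in HIP_2MPT and 49.8 CPM in PFC_2MPT. At 4 months they were 518 CPM in HIP_4MPT and 1284 CPM in PFC_4MPT, so that the make-up of this class differed by stage and library. In astrocyte-like sums 6 of 8 astrocyte markers were found in D0, at 119.8 CPM and beside 9127 CPM of radial glia markers, and all 8 in each graft, at 371 to 2468 CPM, so that the label is weak for the D0 cells. The classes held 2144 neuron-like cells in D0 and 4758 to 7382 per graft, 1931 progenitor-like cells in D0 and 485 to 588 per graft, and 94 astrocyte-like cells in D0 and 363 to 710 per graft. Of the 2144 neuron-like D0 cells, 1031 lay in a cluster of 1034 cells that was found almost only in D0, and the others lay in clusters shared with the grafts. One shared neuron-like cluster, with mitochondrial-like MTRNR2L copies among its top genes, held 905 of the 6524 neuron-like PFC_4MPT cells. It held 320 cells in D0 and 25 to 77 in each other graft.

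GABRB1, a beta subunit gene, was the only one of the 6 that was called higher in any comparison. In neuron-like cells its level was 5.48 CPM in D0 (115 UMIs), then 12.2 CPM in HIP_2MPT (118 UMIs) and 8.27 CPM in PFC_2MPT (93 UMIs), and later 175 CPM in HIP_4MPT (2168 UMIs) and 41.4 CPM in PFC_4MPT (467 UMIs). Both 4-month libraries lay above both 2-month libraries and D0, and their Poisson intervals did not overlap those of the earlier libraries. Between 2 and 4 months the level rose 10.9-fold (log2 fold change 3.44 ± 0.53 (SE), adjusted p = 0.0102, edgeR quasi-likelihood test), among 1.06% of all genes tested that were called in this comparison. No other gene of the 6 was called there. Against D0 it rose by a log2 fold change of 4.18 ± 0.74 at 4 months (adjusted p = 0.000874, edgeR), whereas at 2 months the fitted difference was 0.74 ± 0.64 (adjusted p = 0.374, edgeR).

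The size of the rise in GABRB1 rested on the hippocampal graft at 4 months. Without HIP_4MPT the log2 fold change from 2 to 4 months was 2.11 (adjusted p = 0.00151, edgeR) and without PFC_4MPT it was 4.12. Against D0 it was 2.80 without HIP_4MPT and 4.87 without PFC_4MPT. The call held in each of these fits, in which the lone library of the stage was assumed to vary like the others. The p-values throughout measure only the spread between these libraries, since the HIP and PFC libraries of a stage served as its replicates and D0 had none and was taken to vary like the others.

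**Figure D1:**
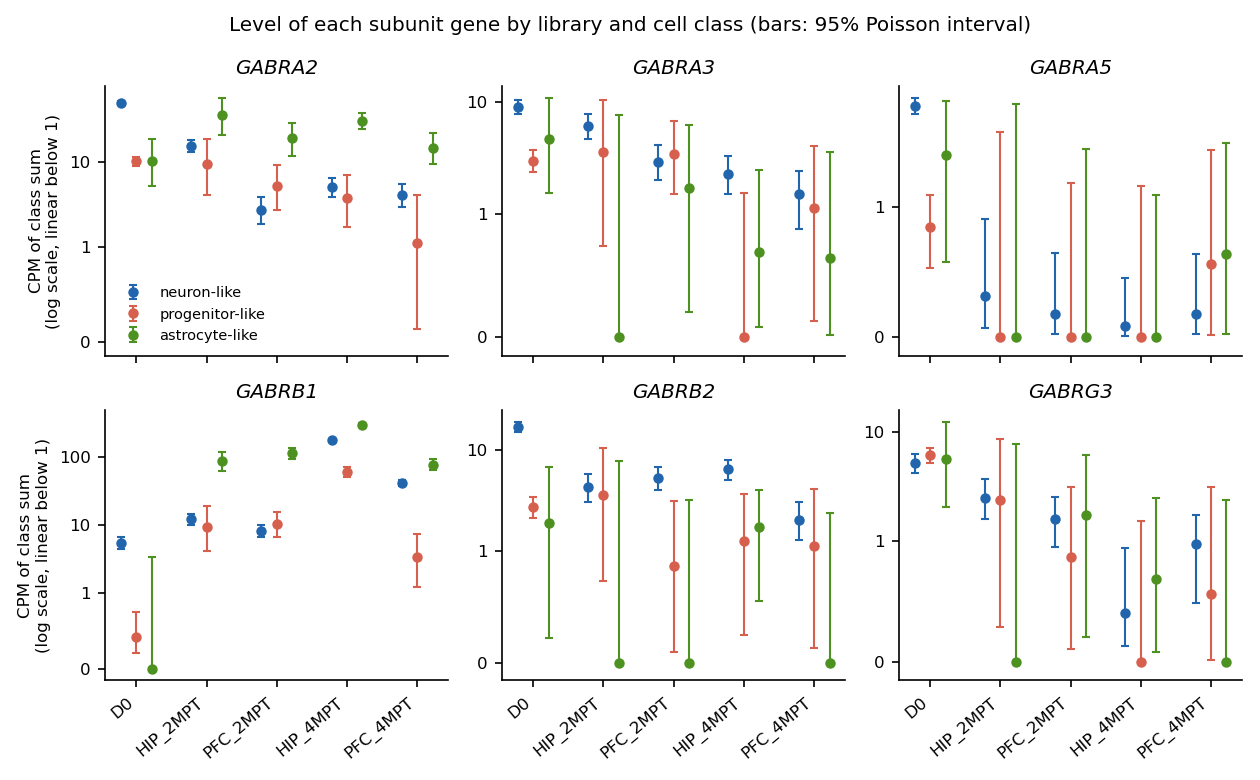
Level of each of the 6 subunit genes (CPM of the class sum, log axis that is linear below 1) in the 5 libraries for neuron-like, progenitor-like and astrocyte-like sums, with exact 95% Poisson intervals as bars. GABRB1 is highest in HIP_4MPT in all 3 classes, and GABRA5 is near 0 in all grafts.

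The share of neuron-like cells with a GABRB1 UMI after thinning was 0.845% in D0, then 1.17% in HIP_2MPT and 0.839% in PFC_2MPT, and later 14.7% in HIP_4MPT and 3.73% in PFC_4MPT. Without thinning it was 30.01% in HIP_4MPT and 6.39% in PFC_4MPT. Both thinned 4-month shares lay above the share of mouse host barcodes with human GABRB1 in the same library, 0.917% in HIP_4MPT and 0.749% in PFC_4MPT. The host barcodes were not thinned and had median depths of 3035 and 2706 UMIs. The neuron-like cells had medians of 2517.5 and 1684 UMIs before thinning. In HIP_2MPT and PFC_2MPT human GABRB1 was seen in 0.437% and 0% of the host barcodes, at median depths of 1418.5 and 2477.5 UMIs against 1244 and 2271 in the neuron-like cells before thinning.

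Within single clusters GABRB1 was higher in HIP_4MPT than in PFC_4MPT in 12 of 12 neuron-like clusters, 4 of 4 progenitor-like clusters and 3 of 3 astrocyte-like clusters with at least 20 cells in both. It was higher in HIP_4MPT than in HIP_2MPT in 11 of 11 neuron-like clusters and higher in PFC_4MPT than in PFC_2MPT in 10 of 11. In the progenitor-like clusters PFC_4MPT was higher than PFC_2MPT in 1 of 4 and lower in 2, and in the astrocyte-like clusters it was lower in 2 of 2. Clusters of a library are parts of that library and not independent, so cluster counts here and below repeat comparisons of single libraries. In the inhibitory-neuron-like cluster the level was 27.9 CPM in HIP_4MPT and 15.5 CPM in PFC_4MPT, below the neuron-like sum of each library. In intermediate-progenitor- or newborn-neuron-like cells it was 89.3 CPM in HIP_4MPT and 9.31 CPM in PFC_4MPT. The summed level of the 8 astrocyte markers in the neuron-like sums was 15.01 CPM in D0, then 14.7 CPM in HIP_2MPT and 10.7 CPM in PFC_2MPT, and later 41.6 CPM in HIP_4MPT and 49.8 CPM in PFC_4MPT. It was also higher at 4 months, but lower in HIP_4MPT than in PFC_4MPT, the reverse of GABRB1, and its part in the result was not tested.

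**Figure D2:**
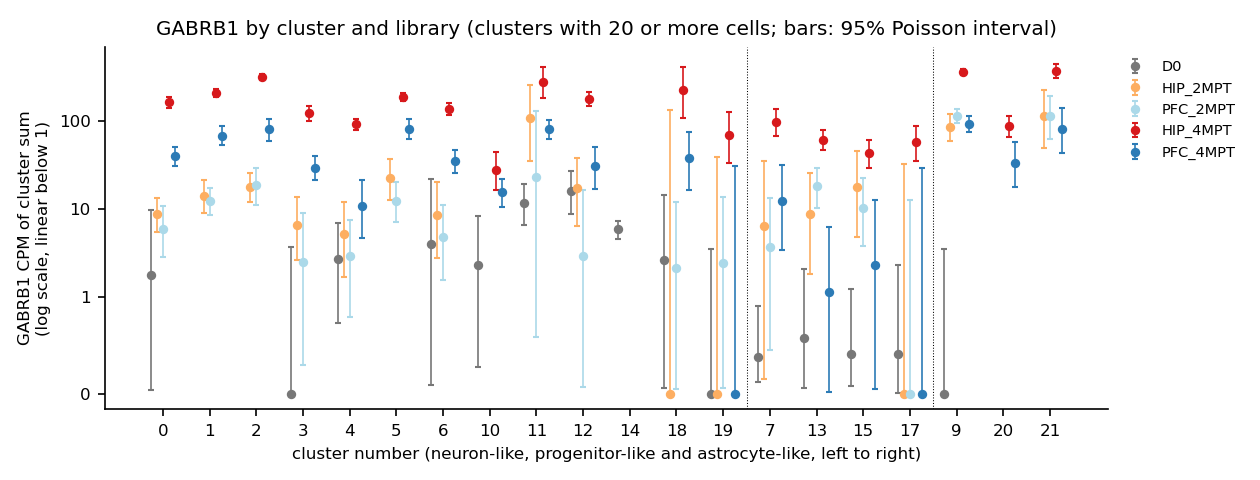
Level of GABRB1 (CPM, log axis that is linear below 1) in clusters with 20 or more cells of a library, 1 point per cluster and library, with 95% Poisson intervals as bars. The HIP_4MPT points lie above the PFC_4MPT points in all 12 neuron-like, 4 progenitor-like and 3 astrocyte-like clusters, which are parts of the same libraries and not independent.

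In astrocyte-like cells of every graft GABRB1 stood above its level in the neuron-like cells of the same library, whereas in D0 it was not found. It had 0 UMIs in 1068592 UMIs of the 94 D0 cells, with a 95% Poisson interval that reached 3.45 CPM. Its level was 87.5 CPM in HIP_2MPT and 113 CPM in PFC_2MPT, and later 298 CPM in HIP_4MPT and 76.7 CPM in PFC_4MPT. Its graft levels were 27.3-fold to 106.2-fold the floor of 3 counts in D0 (2.81 CPM). These ratios leave out the counting error of the grafts. The summed astrocyte markers of these sums were also lowest in D0, at 119.8 CPM, with 371 CPM in HIP_2MPT and 501 CPM in PFC_2MPT. At 4 months the markers had 2468 CPM in HIP_4MPT and 2057 CPM in PFC_4MPT. From PFC_2MPT to PFC_4MPT the markers rose while GABRB1 did not. All 94 D0 cells lay in 1 of the 3 clusters of the class. The part of the markers in the result was not tested. HIP_4MPT lay above the other grafts. PFC_4MPT (95% interval 63.6 to 91.7 CPM) lay below PFC_2MPT (94.5 to 133.9 CPM), and HIP_2MPT (63.1 to 118.3 CPM) overlapped both. Between 2 and 4 months the difference was 0.96 ± 0.44 on the log2 scale (adjusted p = 0.332, edgeR), with 3.08% of all genes tested called, and it was not called. The thinned share of astrocyte-like cells with a UMI was 0 of 84 cells in D0, 8.91% in each 2-month library, 22.3% in HIP_4MPT and 5.46% in PFC_4MPT.

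In progenitor-like cells GABRB1 had 0.423 CPM in D0 (11 UMIs), then 9.50 CPM in HIP_2MPT (8 UMIs) and 10.4 CPM in PFC_2MPT (24 UMIs), and later 60.4 CPM in HIP_4MPT (146 UMIs) and 3.36 CPM in PFC_4MPT (6 UMIs). It was higher at 2 months than in D0 by a log2 fold change of 4.14 ± 1.02 (adjusted p = 0.00334, edgeR), where 36.0% of all genes tested were called, but DESeq2 gave an adjusted p of 0.108. In that comparison tested genes with a span over 200 kb, like GABRB1, had a median of 1.71, and 58.2% of them were called higher. From 2 to 4 months the GABRB1 difference was 1.80 ± 0.69 (adjusted p = 0.405, edgeR, with 1.07% of genes called), and without HIP_4MPT its direction turned to -1.39. The 2 4-month libraries differed 18.0-fold from each other (95% interval of counting 8.07 to 49.8). Their progenitor-like sums also differed in inhibitory neuron markers, at 518 CPM in HIP_4MPT and 1284 CPM in PFC_4MPT. The part of this difference in the GABRB1 values was not tested.

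GABRB2, a second beta subunit gene, was called the other way at 4 months against D0 in neuron-like cells. Its level was 16.7 CPM in D0, then 4.24 CPM in HIP_2MPT and 5.24 CPM in PFC_2MPT, and later 6.38 CPM in HIP_4MPT and 2.04 CPM in PFC_4MPT, so that D0 lay above each graft. It fell by 1.963 ± 0.51 on the log2 scale from D0 to 2 months (adjusted p = 0.00919, edgeR) and was lower by 2.10 ± 0.51 at 4 months than in D0 (adjusted p = 0.00581, edgeR). The 4-month value was -3.15 without HIP_4MPT and -1.52 without PFC_4MPT. Of the 351 GABRB2 UMIs of D0, 283 lay in the cluster found almost only in D0, at 22.3 CPM. In shared neuron-like clusters D0 was higher in 6 of 8 against HIP_2MPT and 7 of 8 against PFC_2MPT. It was higher in 7 of 9 against each 4-month library, where the D0 levels ran from 0 to 18.4 CPM. The part of the D0 cluster in the fall was not tested.

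Among the alpha subunits, GABRA2 was highest in D0. In neuron-like cells its level was 49.0 CPM in D0 (1029 UMIs), then 15.5 CPM in HIP_2MPT (150 UMIs) and 2.76 CPM in PFC_2MPT (31 UMIs), and later 5.01 CPM in HIP_4MPT (62 UMIs) and 4.08 CPM in PFC_4MPT (46 UMIs). No graft reached the D0 level, and HIP_2MPT lay above the other grafts. It fell by 2.60 ± 0.60 on the log2 scale from D0 to 2 months (adjusted p = 0.00487, edgeR), when 43.7% of all genes tested were called, and was lower by 3.53 ± 0.62 at 4 months than in D0 (adjusted p = 0.000837, edgeR), when 47.3% were called. At 2 months the value was -4.27 without HIP_2MPT and -1.90 without PFC_2MPT, and DESeq2 gave -2.67 with an adjusted p of 0.0882, so that the call at 2 months depended on the tool.

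The lower level of GABRA2 was also seen in clusters that D0 shared with the grafts. D0 was higher in 7 of 8 neuron-like clusters against HIP_2MPT, 8 of 8 against PFC_2MPT and 9 of 9 against each 4-month library. The thinned share of neuron-like cells with a UMI was 4.57% in D0 and 0.301% to 1.62% in the grafts. In astrocyte-like cells GABRA2 was 10.3 CPM in D0, then 35.4 CPM in HIP_2MPT and 18.8 CPM in PFC_2MPT, and later 30.2 CPM in HIP_4MPT and 14.7 CPM in PFC_4MPT, so that it was at or above its D0 level there. In progenitor-like cells it was 10.1 CPM in D0, then 9.50 CPM in HIP_2MPT and 5.198 CPM in PFC_2MPT, and later 3.72 CPM in HIP_4MPT and 1.12 CPM in PFC_4MPT. No difference was called there at 2 months against D0 or from 2 to 4 months. Comparisons of 4 months with D0 in progenitor-like cells, and of any graft with D0 in astrocyte-like cells, were not tested.

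GABRA5, the alpha subunit of tonic inhibition in the hippocampus, was almost confined to D0 among the neuron-like sums. Its level there was 7.38 CPM in D0 (155 UMIs), then 0.310 CPM in HIP_2MPT (3 UMIs) and 0.178 CPM in PFC_2MPT (2 UMIs), and later 0.0808 CPM in HIP_4MPT (1 UMI) and 0.177 CPM in PFC_4MPT (2 UMIs). It fell by 5.04 ± 0.67 on the log2 scale at 2 months (adjusted p = 0.000144, edgeR) and by 5.86 ± 0.71 at 4 months (adjusted p = 7.25e-05, edgeR) against D0, the latter -6.49 without PFC_4MPT. These fitted values rest on 1 to 3 UMIs per graft.

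GABRA3, an alpha subunit gene on the X chromosome, had 9.004 CPM in D0, then 6.10 CPM in HIP_2MPT and 2.93 CPM in PFC_2MPT, and later 2.26 CPM in HIP_4MPT and 1.51 CPM in PFC_4MPT in neuron-like cells. The point levels followed stage, but the intervals of D0 and HIP_2MPT overlapped, as did those of PFC_2MPT, HIP_4MPT and PFC_4MPT. Of the 189 GABRA3 UMIs of D0, 140 lay in the cluster found almost only in D0, at 11.05 CPM. In shared neuron-like clusters D0 was higher in 5 of 8 against HIP_2MPT and 6 of 8 against PFC_2MPT. It was higher in 7 of 9 against each 4-month library. The part of the D0 cluster in the GABRA3 difference was not tested. Against D0 the difference was -1.16 ± 0.49 at 2 months (adjusted p = 0.0727, edgeR), which became a call without HIP_2MPT (adjusted p = 0.0166) or without HIP_4MPT (adjusted p = 0.0407), and the gene was lower by 2.36 ± 0.50 on the log2 scale at 4 months (adjusted p = 0.0028, edgeR).

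GABRG3, a gamma subunit gene, had 5.15 CPM in D0, then 2.48 CPM in HIP_2MPT and 1.6002 CPM in PFC_2MPT, and later 0.404 CPM in HIP_4MPT and 0.975 CPM in PFC_4MPT in neuron-like cells, with D0 apart from every graft by its counting interval. Its difference was -1.49 ± 0.57 at 2 months (adjusted p = 0.0535, edgeR; 0.038 without HIP_2MPT and 0.0283 without HIP_4MPT), and it was lower by 2.997 ± 0.62 on the log2 scale at 4 months than in D0 (adjusted p = 0.00229, edgeR; -3.77 without PFC_4MPT). In progenitor-like cells GABRG3 had 6.07 CPM in D0 (158 UMIs), 2.38 CPM in HIP_2MPT (2 UMIs) and 0.866 CPM in PFC_2MPT (2 UMIs). Both graft counts lay under the floor of 3 counts, and the HIP_2MPT interval (0.288 to 8.58 CPM) held the D0 level. The fitted fall was 2.56 ± 0.91 on the log2 scale (adjusted p = 0.0337, edgeR). This fall was not called by DESeq2 (adjusted p = 0.345) or without PFC_2MPT (-1.80). In HIP_4MPT GABRG3 had 0 UMIs in these cells, and its D0 level was 4.90-fold the floor of 3 counts in HIP_4MPT. In the progenitor-like and astrocyte-like sums, GABRA3, GABRA5 and GABRB2 reached at most 4.68, 2.81 and 3.56 CPM in any library, and no difference of theirs was tested there because they did not pass the filter on low counts. Outside the 3 classes, GABRA3 had 42.99 CPM (20 UMIs, 95% interval 26.3 to 66.4) in an oligodendrocyte-lineage-like cluster of 166 cells, of which 3 came from HIP_2MPT, 63 from HIP_4MPT and 100 from PFC_4MPT.

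**Figure D3:**
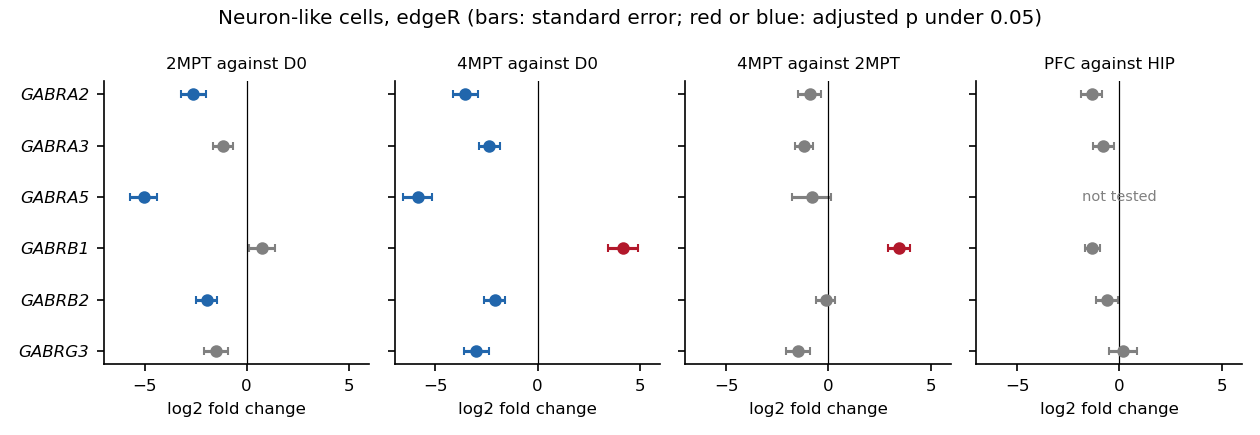
Log2 fold change with SE (edgeR, neuron-like cells) of the 6 subunit genes for 2MPT against D0, 4MPT against D0, 4MPT against 2MPT and PFC against HIP, 1 panel each, with called genes in red (higher) or blue (lower). GABRB1 is the only gene above 0 in the 4-month comparisons, at 4.18 against D0 and 3.44 against 2 months, and the other 5 lie below 0.

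Over the 6 genes, 0 were called higher and 3 lower at 2 months against D0 in neuron-like cells, with a median log2 fold change of -1.73 against 0.15 over all genes tested. At 4 months against D0, 1 was called higher and 5 lower, with a median of -2.68 against 0.16. The counts of 3 and 6 calls among 6 genes stand beside 43.7% and 47.3% of all genes tested that were called in these comparisons, which share the D0 library. The 6 genes were chosen with earlier results of these data known, so these counts and medians are no test of the set. After the filter on low counts the 6 genes were all tested across stages in neuron-like cells, 3 of them (GABRA2, GABRB1 and GABRG3) in progenitor-like cells, where 1 was called higher and 1 lower, and 2 (GABRA2 and GABRB1) in astrocyte-like cells, where edgeR and DESeq2 called 0 from 2 to 4 months and 1, GABRB1, passed the threshold of 0.05 without adjustment. Of the 13 other subunit genes 7 were tested in neuron-like cells, of which 1 was called higher and 3 lower at 2 months against D0, and 1 higher and 2 lower at 4 months. These 7 had a median log2 fold change against D0 of -0.012 at 2 months and -0.476 at 4 months. The gene called higher at both stages, GABRR1, which forms GABA-C-type channels of rho subunits, had 0 UMIs in neuron-like cells of D0 and 17, 17, 52 and 35 in the HIP and PFC grafts at 2 and then 4 months in the same class. Its graft levels were 10.6-fold to 29.4-fold the floor of 3 counts in D0. Over all human cells of D0 it had 21 UMIs, most of them outside the 3 classes.

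The graft site gave no call among the 6 genes. With stage as a covariate, the differences of PFC against HIP in neuron-like cells were -1.33 ± 0.37 for GABRB1 (adjusted p = 0.892, edgeR), -1.35 ± 0.51 for GABRA2 and between -0.79 and 0.17 for GABRA3, GABRB2 and GABRG3, with 0.0313% of all genes called and 1 residual degree of freedom. Without adjustment 2 of the 5 genes tested there, GABRB1 and GABRA2, passed the threshold of 0.05 in edgeR, and DESeq2 also called 0. In progenitor-like cells GABRB1 differed by -2.03 (adjusted p = 0.141; 0.11% of genes called) and in astrocyte-like cells by -0.90 (adjusted p = 0.491; 0.205% of genes called). By stage, GABRB1 in HIP_2MPT was 1.48-fold that in PFC_2MPT in neuron-like cells (95% interval 1.11 to 1.958, counting error only), and in HIP_4MPT it was 4.23-fold that in PFC_4MPT (3.83 to 4.69), whereas GABRA2 was 5.63-fold higher in HIP_2MPT than in PFC_2MPT (3.80 to 8.57) and 1.23-fold at 4 months (0.825 to 1.84). These ratios compare single libraries and carry no test of the site.

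Genes of receptor assembly and trafficking moved in both directions. Of 13 partners tested in neuron-like cells, 3 were called higher and 4 lower at 2 months against D0, where 43.7% of all genes tested were called, and 3 higher and 6 lower at 4 months, where 47.3% were. At 2 months the higher ones were GPHN, which encodes the scaffold gephyrin (3.86 ± 0.49, adjusted p = 0.000107, edgeR), GABARAP, a receptor-associated trafficking protein (2.74 ± 0.35), and LHFPL4, which links receptors to neuroligin-2 (2.53 ± 0.38), whereas NLGN2, SHISA7 and HAP1 were among the lower (-1.27, -2.78 and -6.36). At 4 months the same 3 were called higher, and NLGN2, SHISA7, HAP1, NSF (-0.91) and UBQLN1 (-1.24) were among the lower. None of these genes was called between graft stages or sites in any class. Of 6 genes of GABA synthesis and transport in neuron-like cells, 1 was called higher and 5 lower at 2 months against D0 and 2 higher and 3 lower at 4 months, beside the same shares of all genes. From 2 to 4 months 3 of them (GAD1, GAD2 and SLC32A1) rose, where 1.06% of all genes were called. The inhibitory-neuron-like cluster of this class grew from 12 cells in HIP_2MPT and 18 in PFC_2MPT to 246 in HIP_4MPT and 1084 in PFC_4MPT, and the summed inhibitory markers, which include these 3 genes, from 4.45 and 16.98 CPM to 169.8 and 573 CPM.

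The difference from D0 also moved with gene length. Over all genes tested in neuron-like cells the median log2 fold change at 2 months was -0.06 for spans under 10 kb, -0.08 from 10 to 50 kb, 0.37 from 50 to 200 kb and 1.72 over 200 kb, where 58.6% of genes were called higher and 7.47% lower. From 2 to 4 months the median over 200 kb was 0.09. The spans of GABRA2 (231.683 kb), GABRA3 (285.082 kb), GABRB1 (432.725 kb), GABRB2 (260.616 kb) and GABRG3 (570.804 kb) are over 200 kb and that of GABRA5 is 82.3 kb. GABRA2, GABRA3, GABRB2 and GABRG3 thus went against the median of genes of their length. The part of Cell Ranger release, of gene list or of intronic reads in this was not tested.

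**Figure D4:**
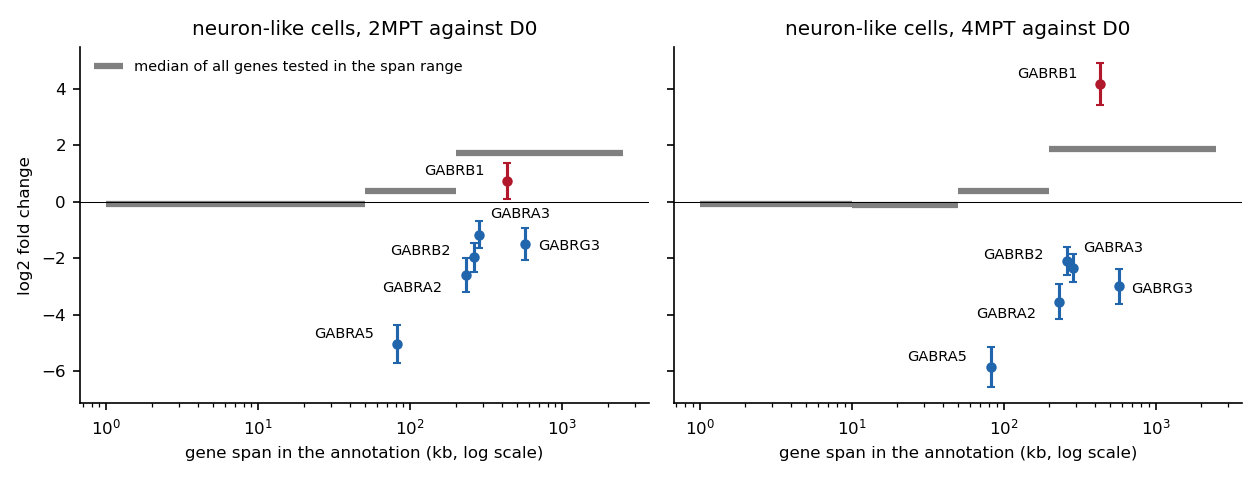
Median log2 fold change of all genes tested in neuron-like cells by gene span (kb, log axis; bins under 10, 10 to 50, 50 to 200 and over 200 kb), with the 6 subunit genes as points with SE, for 2MPT and 4MPT against D0. Genes over 200 kb have a median of 1.72 at 2 months and 1.86 at 4 months, and at 4 months GABRB1 lies above it while GABRA2, GABRA3, GABRB2 and GABRG3 lie below 0.

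As a description with no test, the gene whose log2(CPM + 1) over the 15 class sums was most like each subunit was NFE2L1 for GABRA2 (Pearson r = 0.90, followed by PAPPA2 and HNRNPH2), MTMR9 for GABRA3 (0.92, then ZNF622 and FXR2), SST for GABRA5 (0.94, then ZRANB1 and BRK1), CCDC30 for GABRB1 (0.93, then SSH1 and GARNL3), KMT5B for GABRB2 (0.91, then KIF3B and GSK3A) and WIZ for GABRG3 (0.91, then TRMT10C and GOLT1B), among 10240 genes with a mean of at least 10 CPM. Among the subunits themselves the closest pair was GABRA3 and GABRG3 (0.83) and the most opposed was GABRB1 and GABRG3 (-0.74). The 15 sums come from 5 libraries, share depth and library within each library, and are not independent.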

How the data were processed

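Each of the 5 libraries was made with the 10x Chromium 3′ V3 kit and sequenced on NovaSeq6000. The deposited values are UMI counts per gene and barcode; the authors made them with Cell Ranger (3.1 and R 4.1.1 in the submitters' processing notes, with GRCh38; per the file headers 3.1.0 for D0 and 5.0.0 for the grafts). Intron counting is not given in the sources used here. Grafts were counted against a human and against a dual human and mouse reference.

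Cells with over 500 UMIs, over 500 genes, a log10 gene to log10 UMI ratio over 0.8, a mitochondrial share under 0.15 and, in grafts, a human share over 0.8 were kept. They were clustered with Seurat 5.3.0 and sctransform 0.4.2 without the GABA-A receptor genes, and clusters were named from marker genes. The thresholds of the naming rule (at least 3 markers, 10 CPM and a z score of 0.5) were set after the clusters had been seen. Scrublet marked 3 cells, too few to have worked, so doublets were left in and an alternative removed the highest 6% of scores. Counts were summed by library and class and tested with edgeR 4.0.16 (quasi-likelihood, TMM, filterByExpr, Benjamini-Hochberg, threshold 0.05), with DESeq2 1.42.0 as an alternative (R 4.3.3). The stage model held all 5 libraries, and the model of PFC against HIP held the 4 grafts with stage as a covariate. Tests against D0 were run at 2MPT and 4MPT in neuron-like cells, only at 2MPT in progenitor-like cells, and not in astrocyte-like cells. Called means an adjusted p under 0.05. On simulated counts for the comparison of 4MPT with 2MPT in neuron-like cells (16831 genes), 100 of 100 genes changed 4-fold and 29 of 100 changed 2-fold were found, with 4 false calls. The changed genes were drawn only from genes with higher mean levels, and every gene was given the same spread between libraries. These counts therefore do not give the power for genes at the low levels of most of the 6. The 6 genes were named in every comparison, and the other subunit, partner and synthesis genes by list, of which some are not reported here. Members and lists were chosen with earlier results of these data known. Figures were drawn with matplotlib 3.10.9 under Python 3.11.15.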

Additional observations from a re-analysis of the deposited data

Results flagged for a closer look

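GABRB1 was also counted outside the 3 classes. In the cluster led by OLIG1 and EGFR, which belongs to none of the 3 classes, GABRB1 had 31.6 CPM in HIP_4MPT (102 UMIs) and 8.07 CPM in PFC_4MPT (14 UMIs), a ratio of 3.91 (95% counting interval 2.23 to 7.41). In mouse host barcodes, whose shares are given above, human GABRB1 was counted too, with 4 UMIs in HIP_2MPT, 20 in HIP_4MPT and 9 in PFC_4MPT.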

How the results depend on the processing

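Over the alternatives, 469 fold changes of the 6 genes kept their direction and their side of the threshold, 22 became called, 4 lost a call and 17 reversed. All 6 calls at 4 months against D0 in neuron-like cells, and the call of GABRB1 from 2 to 4 months, held under every alternative run.

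DESeq2 gave 310 called genes from 2 to 4 months and 9 for PFC against HIP in neuron-like cells, 3152 at 2 months against D0, 96 from 2 to 4 months and 1 for the site in progenitor-like cells, and 165 and 2 in astrocyte-like cells. With DESeq2 GABRA2 at 2 months in neuron-like cells (-2.67) and GABRB1 (4.16) and GABRG3 (-2.45) in progenitor-like cells were not called, which left 0 of the 6 called there. Without a filter on low counts the genes called were 875 and 30 in neuron-like cells, 300 and 23 in progenitor-like cells and 721 in astrocyte-like cells, and the genes of the 6 called were 5 at 2 months against D0, 1 from 2 to 4 months and 1 for the site in progenitor-like cells and 1 in astrocyte-like cells, where GABRA2 turned to 0.0036. With RLE size factors 3 genes were called for the site in neuron-like cells. With each cell classed by its own markers the genes called were 122 and 29 in neuron-like cells, 34 and 1 in progenitor-like cells and 169 and 12 in astrocyte-like cells. That setting put 948 D0 cells and 3564 to 6729 cells per graft in the neuron-like class. Under it 21 levels of the 6 genes moved outside their main counting intervals, and 69 stayed inside.

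For the site in neuron-like cells the count was 8 with a human share over 0.9, 16 with a mitochondrial share under 0.1, 0 at resolution 1.6 or without stage in the fit, 30 without the highest Scrublet scores or with the dual reference, and 29 without clusters led by stress genes, an alternative added after the clusters had been seen. GABRG3 reversed there with a human share over 0.9 (-0.13), without stage (-0.081) and without the stress clusters (-0.044). For the site in progenitor-like cells the count was 1 (human share, resolution, Scrublet, dual reference), 2 (mitochondrial share), 23 with over 1000 UMIs per cell, when 1 of the 6 was called, and 0 without stage. Resolution 1.6 gave 93 from 2 to 4 months there. For the site in astrocyte-like cells it was 11 with a human share over 0.9, 2 with over 1000 UMIs, 1 without Scrublet scores and 0 without stage, and GABRA2 from 2 to 4 months turned to 0.024 with a human share over 0.9. With graft site as a replicate block the stage comparison called 620 genes in astrocyte-like cells, 235 in neuron-like cells and 210 in progenitor-like cells, the site being no pairing of animals.

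Leaving out 1 library at a time gave, from 2 to 4 months in neuron-like cells, 225 to 836 genes and 1 to 2 of the 6, with GABRA2 from -1.68 to 0.74 and GABRB2 from -1.13 to 0.44. It gave 3 to 5 of the 6 at 2 months against D0. For the site it gave 0 to 35 genes, with GABRA3 from -1.38 to 0.0022, GABRB1 from -3.50 to 1.13 and GABRG3 from -0.86 to 1.68. In progenitor-like cells it gave 1 to 2 of the 6 at 2 months, GABRG3 from -3.17 to -1.80, and from 2 to 4 months 84 to 405 genes, 0 to 1 of the 6 and GABRB1 from -1.39 to 2.67, and 0 to 1 genes for the site. In astrocyte-like cells it gave 81 to 744 genes and 0 to 1 of the 6 from 2 to 4 months, GABRA2 from -0.71 to 0.34 and GABRB1 from -0.34 to 1.61, and for the site 0 to 6 genes and GABRB1 from -1.68 to 0.17. The cause of these changes was not tested. Levels under 10 UMIs carry wide counting intervals.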
